A study of Homo sapiens with 12 samples.

Results

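The effect of 1 h of fulvestrant on transcription was measured by PRO-seq in T47D cells, an established human breast cancer line that carries estrogen receptor alpha. The comparison set 2 libraries of cells given 100 nM fulvestrant against 2 libraries of cells given vehicle, 0.1% DMSO by volume, and used 4 of the 12 libraries of the series. It was read across the 23375 of 59410 genes that passed a filter on low counts. Both groups had been kept for 3 days in complete medium with fetal bovine serum, so the vehicle cells were not deprived of the hormones that serum carries. Further libraries, 2 a group, were used for comparison. They came from cells given 100 nM raloxifene or 100 nM tamoxifen for 1 h in the same medium, and from hormone-starved cells given 1 nM estradiol or vehicle for 1 h. The labels number the libraries of each group 3 and 4 and do not say whether they came from separate cultures. Error here is therefore the difference between libraries of a group, and it may be no more than technical.

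Estrogen receptor alpha is a ligand-activated transcription factor that drives growth of luminal breast cancers. Bound by estradiol, it occupies estrogen response elements, mostly in enhancers far from promoters, and recruits coactivators that raise transcription of nearby genes. Fulvestrant, an estradiol analogue with a long side chain, occupies the same pocket, blocks coactivator recruitment and leads to loss of the receptor protein. PRO-seq sequences the RNA that engaged polymerases extend in a nuclear run-on, so it reads transcription at the time of harvest and not the stock of mature RNA.

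The fulvestrant libraries held 6134826 and 5583088 counts, and the vehicle libraries 6344474 and 4981796. Values are given as CPM, read counts scaled to a common library size with TMM factors, so each is relative to the other genes and a shift of the whole library could not be detected. The luminal identity of the cells was checked with 8 markers (ESR1, PGR, GATA3, FOXA1, KRT8, KRT18, KRT19 and EPCAM), all of which were between 32.8 and 1999 CPM in the 4 libraries. The 20 markers of stromal, endothelial and blood cells summed to 54.8 and 51.4 CPM with fulvestrant, against 51.9 and 48.2 CPM with vehicle. LYZ, HBB and HBA1 were at 0 in all 4. The highest tested members were CD68 and COL1A1. CD68 had 22.4 and 17.3 CPM with fulvestrant, against 21.6 and 18.1 CPM with vehicle. COL1A1 had 17.3 and 21 CPM with fulvestrant, against 19.1 and 17.3 CPM with vehicle. The 20 basal and mesenchymal markers summed to 184 and 194 CPM with fulvestrant, against 187 and 188 CPM with vehicle. EGFR, the highest tested member, had 51.7 and 56.6 CPM with fulvestrant, against 59.5 and 53.1 CPM with vehicle. It lay above the luminal marker EPCAM in each library. CPM are not per gene length, so they do not rank the transcription of different genes.

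Fulvestrant mostly lowered transcription. By edgeR's quasi-likelihood test with Benjamini-Hochberg adjustment over all tested genes and a threshold of 0.05, 245 genes fell (1.05% of those tested) and 25 rose (0.107%), so that 90.7% of the 270 calls were falls. The genes that fell had a median log2 fold change of -0.58 and reached -1.96. Those that rose had a median of 0.31 and reached 0.57, while the median of all tested genes was 0.006. A fall of at least 2-fold was called for 43 genes (0.184%). No gene rose by that much in edgeR's test, although 90 did at an unadjusted p under 0.05, and DESeq2 called 0. In bulk libraries such as these, a smaller share of cells that transcribe a gene and less transcription per cell cannot be told apart.

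Leaving out 1 library changed the counts more than the direction. Without fulvestrant library 3, 127 genes fell and 16 rose, and without fulvestrant library 4, 182 fell and 15 rose. Without vehicle library 3, 147 fell and 10 rose, and without vehicle library 4, 160 fell and 7 rose. Of the 245 genes that fell, 101 stayed past the threshold whichever of these 4 libraries was left out, and of the 25 that rose, 3 did. Where a gene named below lost its call without a library, its adjusted p in that case follows it, except for TFAP2C.

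**Figure D1:**
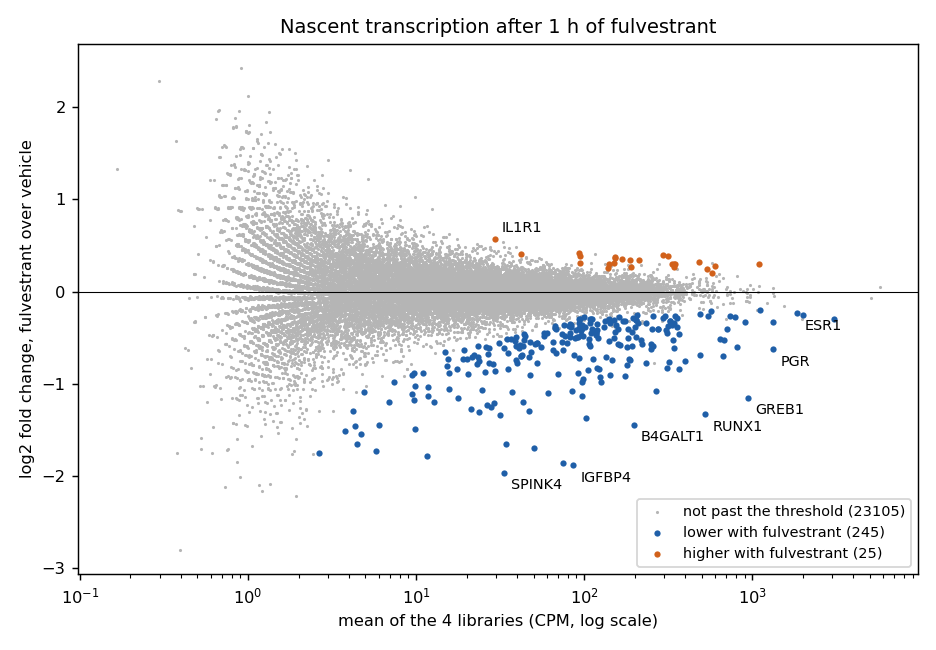
Log2 fold change of fulvestrant over vehicle (vertical) against the mean of the 4 libraries in CPM (horizontal, log scale) for the 23375 tested genes, with the 245 genes called lower in blue, the 25 called higher in orange and the rest in grey. The falls reach -1.96 (SPINK4) and the called rises end at 0.57 (IL1R1).

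Genes for secreted proteins held the 3 deepest falls, those of SPINK4, IGFBP4 and CXCL12. SPINK4, which encodes a Kazal-type protease inhibitor (ENSG00000122711, chromosome 9, 33240167 to 33248567, GRCh38), had 13.9 and 13.3 CPM in the fulvestrant libraries, against 50.3 and 56.4 CPM in the vehicle libraries. The log2 fold change was -1.96 ± 0.13 (adjusted p = 1.2e-08 by edgeR's quasi-likelihood test), or 25.7% of the vehicle level; errors after fold changes are standard errors from that model. IGFBP4, which encodes a binding protein that restrains insulin-like growth factors (ENSG00000141753, chromosome 17, 40443450 to 40457725), had 37.8 and 35.8 CPM with fulvestrant, against 146 and 124 CPM with vehicle. Its log2 fold change was -1.88 ± 0.099. Both fulvestrant libraries lay below both vehicle libraries for each of the 245 genes that fell, as they did for 17.9% of all tested genes, so such separation belongs to the call and to the choice of genes named here.

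CXCL12, the chemokine that acts through CXCR4 (ENSG00000107562, chromosome 10, 44370165 to 44385097), had 30 and 34.3 CPM with fulvestrant, against 115 and 118 CPM with vehicle (-1.86 ± 0.11). Of the 4 tested chemokine and chemokine receptor genes, it alone passed. PTGES, the terminal enzyme of prostaglandin E synthesis, had 14.5 and 18.9 CPM with fulvestrant, against 52.3 and 52.1 CPM with vehicle (-1.65 ± 0.13). SERPINA6, which encodes the globulin that carries corticosteroids in blood, had 52.2 and 63.1 CPM with fulvestrant, against 146 and 151 CPM with vehicle (-1.37 ± 0.10). B4GALT1, a galactosyltransferase of the Golgi that also takes part in lactose synthesis, had 105 and 108 CPM with fulvestrant, against 310 and 268 CPM with vehicle (-1.44 ± 0.071).

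Of the 18 tested members of the list of secreted proteins and protease inhibitors, 9 fell (50%, against 1.05% of all tested genes) and 0 rose (1 higher at an unadjusted p under 0.05, and DESeq2 called 7 lower and 0 higher), with a median log2 fold change of -0.61, against 0.006 over all tested genes. Of those that fell, TFF3, OLFM1, AGR3, CTSD, STC2 and AGR2 are also in the list of classic estrogen-induced genes described below. Both lists were chosen with earlier results of these data known, so neither share is independent evidence. CTSD, the lysosomal protease cathepsin D, had 75.8 and 75.5 CPM with fulvestrant, against 152 and 118 CPM with vehicle (-0.85 ± 0.11). STC2, a secreted glycoprotein, had 510 and 546 CPM with fulvestrant, against 719 and 787 CPM with vehicle (-0.51 ± 0.074). OLFM1 (-1.08 ± 0.097) and AGR3 (-0.98 ± 0.11) fell as well. TFF3, a trefoil peptide of mucosal secretions, had 3.23 and 3.24 CPM with fulvestrant, against 9.06 and 8.55 CPM with vehicle. Its fold change of -1.44 ± 0.26 lost its call without fulvestrant library 3 (adjusted p = 0.068) or vehicle library 3 (0.078). TFF1, a trefoil gene often used to report estrogen receptor activity, did not pass the filter on low counts, with 0 and 2 counts in the fulvestrant libraries and 6 and 7 in the vehicle libraries.

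Among 42 growth factor and cytokine ligands and receptors, 7 fell (16.7%, against 1.05% of all tested genes) and 1 rose, with a median of -0.02. IL6ST, the signalling chain shared by receptors of the interleukin-6 family, had 134 and 145 CPM with fulvestrant, against 227 and 236 CPM with vehicle (-0.73 ± 0.068). IGF1R, the receptor of insulin-like growth factors, had 600 and 616 CPM with fulvestrant, against 806 and 799 CPM with vehicle (-0.40 ± 0.044). So the receptor and the binding protein IGFBP4 of the same axis both fell, the binding protein by more. The epidermal growth factor receptor ligand AREG had 29.2 and 34.7 CPM with fulvestrant, against 49.1 and 42.6 CPM with vehicle. At -0.53 ± 0.12 it lost its call without fulvestrant library 3 (adjusted p = 0.49), without vehicle library 3 (0.54) and in DESeq2 (0.17).

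**Figure D2:**
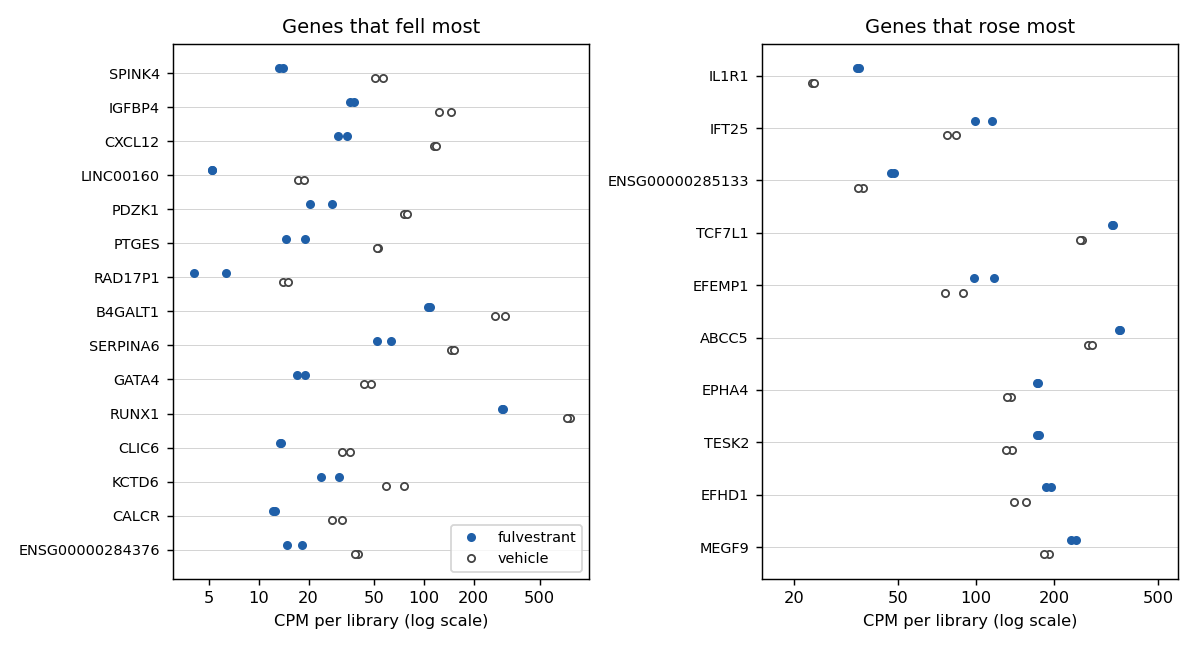
CPM in each library (horizontal, log scale) for the 15 genes that fell most and the 10 that rose most among called genes with a mean of at least 50 counts in the 4 libraries; filled blue circles are fulvestrant libraries and open circles vehicle libraries. The 2 groups do not overlap for any gene shown, a condition the genes were chosen by; SPINK4 sits at 13.9 and 13.3 CPM with fulvestrant and at 50.3 and 56.4 CPM with vehicle, and ABCC5 at 358 and 356 CPM with fulvestrant and at 269 and 279 CPM with vehicle.

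Transcription factors and receptor cofactors fell in small numbers but among the most certain calls. RUNX1, a lineage transcription factor that binds with the estrogen receptor at many sites (ENSG00000159216, chromosome 21, 34787801 to 35049302), had 296 and 300 CPM with fulvestrant, against 762 and 735 CPM with vehicle. Its log2 fold change of -1.33 ± 0.052 had the smallest adjusted p of all tested genes (2.7e-12, edgeR's quasi-likelihood test). GREB1, a cofactor of the receptor and one of its best known targets (ENSG00000196208, chromosome 2, 11482888 to 11642788), had 586 and 591 CPM with fulvestrant, against 1354 and 1266 CPM with vehicle (-1.15 ± 0.053). NRIP1, a corepressor recruited by ligand-bound nuclear receptors, had 170 and 174 CPM with fulvestrant, against 294 and 295 CPM with vehicle (-0.78 ± 0.065). GATA4, a zinc-finger factor best known from heart and endoderm, had 19.1 and 16.9 CPM with fulvestrant, against 47.9 and 43 CPM with vehicle (-1.34 ± 0.13). Of the 33 cofactors and partners of the receptor in the list, 4 fell (12.1%, against 1.05%) and 0 rose (2 higher at an unadjusted p under 0.05, 0 in DESeq2), and the median was 0.01.

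Of 35 nuclear receptor genes tested, RARA, PGR and ESR1 fell (8.57%, against 1.05%) and 0 rose (2 higher at an unadjusted p under 0.05, 0 in DESeq2). RARA, the retinoic acid receptor alpha, had 226 and 222 CPM with fulvestrant, against 419 and 374 CPM with vehicle (-0.83 ± 0.063). PGR, the progesterone receptor (ENSG00000082175, chromosome 11, 101029624 to 101129813), had 998 and 1090 CPM with fulvestrant, against 1597 and 1625 CPM with vehicle (-0.63 ± 0.058). ESR1, which encodes the target of fulvestrant (ENSG00000091831, chromosome 6, 151656672 to 152129619), had 1700 and 1690 CPM with fulvestrant, against 1999 and 1993 CPM with vehicle. Its log2 fold change was -0.24 ± 0.040 (edgeR's quasi-likelihood test, adjusted p = 0.0017), or 84.9% of the vehicle level. These values read transcription of the gene and not the amount of receptor protein. FOXA1 and GATA3, pioneer and lineage factors of the receptor, stood at 167 and 172 CPM and at 882 and 965 CPM with fulvestrant, against 170 and 167 CPM and 880 and 966 CPM with vehicle. Of 26 tested luminal lineage factors and keratins, 2 fell (7.69%, against 1.05%) and 0 rose (1 higher at an unadjusted p under 0.05, 0 in DESeq2). They were GRHL2 (-0.33 ± 0.043) and TFAP2C (-0.41 ± 0.089). GRHL2 kept its call whichever of the 4 libraries was left out, and TFAP2C did not.

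The list of MYC and MAX network genes also holds MYB-family genes and PVT1, a neighbour of MYC. Of its 21 tested members, 4 fell (19%, against 1.05%) and 0 rose (1 higher at an unadjusted p under 0.05, 0 in DESeq2). The 4 were MYC, MYB, MYBL1 and PVT1. MYC was thus the only fall outside the MYB family and PVT1, and MAX did not pass. MYC, the growth-promoting transcription factor (ENSG00000136997, chromosome 8, 127735434 to 127742951), had 59.9 and 61.9 CPM with fulvestrant, against 142 and 124 CPM with vehicle (-1.13 ± 0.098). MYB, a proto-oncogene transcription factor, had 34.6 and 43.7 CPM with fulvestrant, against 86.8 and 80.2 CPM with vehicle (-1.10 ± 0.11). Its relative MYBL1 had 77.4 and 91.9 CPM with fulvestrant, against 171 and 162 CPM with vehicle (-0.98 ± 0.099). MYB and MYBL1 were higher in fulvestrant library 4 than in library 3, and both libraries lay below vehicle. PVT1, a long non-coding RNA beside MYC, fell by 0.20 on the log2 scale and lost its call without fulvestrant library 3 (adjusted p = 0.53), vehicle library 3 (0.26) or vehicle library 4 (0.22).

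CCND1, which encodes cyclin D1 and links mitogens to entry into the cell cycle, had 96.4 and 75.7 CPM with fulvestrant, against 138 and 121 CPM with vehicle. The log2 fold change of -0.59 ± 0.11 (edgeR's quasi-likelihood test, adjusted p = 0.0049) lost its call without fulvestrant library 4 (0.14) or vehicle library 3 (0.20). It was the one call among 39 tested G1/S and replication genes (2.56%), a share near the 1.05% of all tested genes. Of 30 G2/M genes 0 passed edgeR's test, and 0 had an unadjusted p under 0.05 or a DESeq2 call. TOP2A, the topoisomerase of dividing cells, had 184 and 215 CPM with fulvestrant, against 220 and 224 CPM with vehicle (-0.15 ± 0.077). None of 40 ribosome biogenesis genes passed, with 0 at an unadjusted p under 0.05 and 0 in DESeq2. At the share of all tested genes, lists of these sizes can hold no call.

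Of 23 scaffold, ERM and cytoskeleton genes, 4 fell (17.4%, against 1.05% of all tested genes) and 0 rose (1 higher at an unadjusted p under 0.05, 0 in DESeq2). PDZK1, which anchors transporters at the apical membrane (ENSG00000174827, chromosome 1, 145670852 to 145707400), had 20.4 and 27.7 CPM with fulvestrant, against 75.9 and 78.4 CPM with vehicle (-1.69 ± 0.12). A near-identical pseudogene lies in the same region, and its reads may have been split with PDZK1 in the authors' counting. Its partner NHERF1, another PDZ scaffold, had 129 and 134 CPM with fulvestrant, against 244 and 211 CPM with vehicle (-0.80 ± 0.071). FHL2, a LIM-domain adaptor, had 300 and 319 CPM with fulvestrant, against 420 and 428 CPM with vehicle (-0.45 ± 0.054).

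Of 35 solute carriers and ABC transporters, 3 fell (8.57%, against 1.05%) and 1, ABCC5, rose, with a median of -0.08. One of the 3 was NHERF1, a scaffold and not a transporter. SLC22A5, the carnitine transporter, had 32.1 and 32.9 CPM with fulvestrant, against 44.9 and 46.4 CPM with vehicle, and lost its call without any 1 of the 4 libraries (adjusted p from 0.10 to 0.21). ABCC11, an exporter of organic anions, had 280 and 254 CPM with fulvestrant, against 333 and 317 CPM with vehicle, and lost its call without fulvestrant library 4 (0.45), vehicle library 3 (0.49) or vehicle library 4 (0.13).

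Of 27 ion channel and pump genes, CLIC6, KCTD6, KCNK5 and KCNH1 fell (14.8%, against 1.05%) and 0 rose (0 higher at an unadjusted p under 0.05, 0 in DESeq2). CLIC6, a member of the chloride intracellular channel family, had 13.4 and 13.7 CPM with fulvestrant, against 32 and 35.4 CPM with vehicle (-1.31 ± 0.13). KCNK5, a background potassium channel, had 15.8 and 19.6 CPM with fulvestrant, against 41.7 and 39.7 CPM with vehicle (-1.21 ± 0.12). KCNH1, a voltage-gated potassium channel, lost its call without fulvestrant library 3 (adjusted p = 0.35), vehicle library 3 (0.051) or vehicle library 4 (0.26). KCTD6 shares only a domain with potassium channels and is known as an adaptor of ubiquitin ligases; it had 23.7 and 30.7 CPM with fulvestrant, against 59.2 and 75.3 CPM with vehicle (-1.30 ± 0.13). CA12, a membrane carbonic anhydrase, had 236 and 242 CPM with fulvestrant, against 417 and 391 CPM with vehicle (-0.76 ± 0.052). CALCR, the calcitonin receptor, had 12.1 and 12.6 CPM with fulvestrant, against 27.8 and 32 CPM with vehicle (-1.27 ± 0.15).

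Of 22 receptor chaperones and heat shock genes, 2 fell (9.09%, against 1.05%) and 0 rose (3 higher at an unadjusted p under 0.05, 0 in DESeq2). FKBP4, a cochaperone of steroid receptors that works with HSP90, had 91.9 and 84.5 CPM with fulvestrant, against 160 and 155 CPM with vehicle (-0.83 ± 0.072). BAG1, a cochaperone of HSP70, had 41.7 and 43.1 CPM with fulvestrant, against 63.9 and 60.1 CPM with vehicle (-0.55 ± 0.086). SIAH2, an E3 ubiquitin ligase, had 98.2 and 99.8 CPM with fulvestrant, against 198 and 171 CPM with vehicle (-0.91 ± 0.077).

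The list of classic estrogen-induced genes held the most calls. Of its 49 tested members, 28 fell (57.1%, against 1.05% of all tested genes) and 0 rose, with a median log2 fold change of -0.59 and 46 negative values. At an unadjusted p under 0.05, 38 were lower and 0 higher, and DESeq2 called 26 lower and 0 higher. The list was put together with earlier results of these data known and is no independent evidence of its direction. Its members also supply calls of other lists, such as PDZK1, NHERF1 and FHL2 among scaffolds and GREB1 and NRIP1 among cofactors. Those lists were chosen with the same results known and overlap with this one. Members that did not pass included XBP1, a transcription factor of secretory cells, with 181 and 202 CPM with fulvestrant, against 232 and 253 CPM with vehicle (-0.34 ± 0.092, edgeR's quasi-likelihood test, adjusted p = 0.10). The secreted protein gene CCN5 stood at -1.46 ± 0.379, with 1.13 and 1.26 CPM under fulvestrant, against 3.34 and 3.26 CPM under vehicle. BCL2, an inhibitor of apoptosis often raised by estrogen in breast cancer, stood at 0.04 ± 0.220.

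Across all 30 lists, 20 held at least 1 fall and 10 held no call. Those 10 were G2/M, ribosome biogenesis, the unfolded protein response, p53 targets, the BCL2 family, interferon-stimulated genes, polymerase II pausing and elongation, the circadian clock, basal and mesenchymal markers, and stromal, endothelial and blood cell markers. Of their 236 distinct tested members, 4 were lower and 5 higher at an unadjusted p under 0.05, and DESeq2 called 0. Housekeeping genes stayed close to 0, with a median of 0.05 over 19 genes and 1 fall (5.26%), that of the transferrin receptor gene TFRC (-0.26 ± 0.059). TFRC lost its call without fulvestrant library 3 (adjusted p = 0.57), vehicle library 3 (0.20) or vehicle library 4 (0.27).

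**Figure D3:**
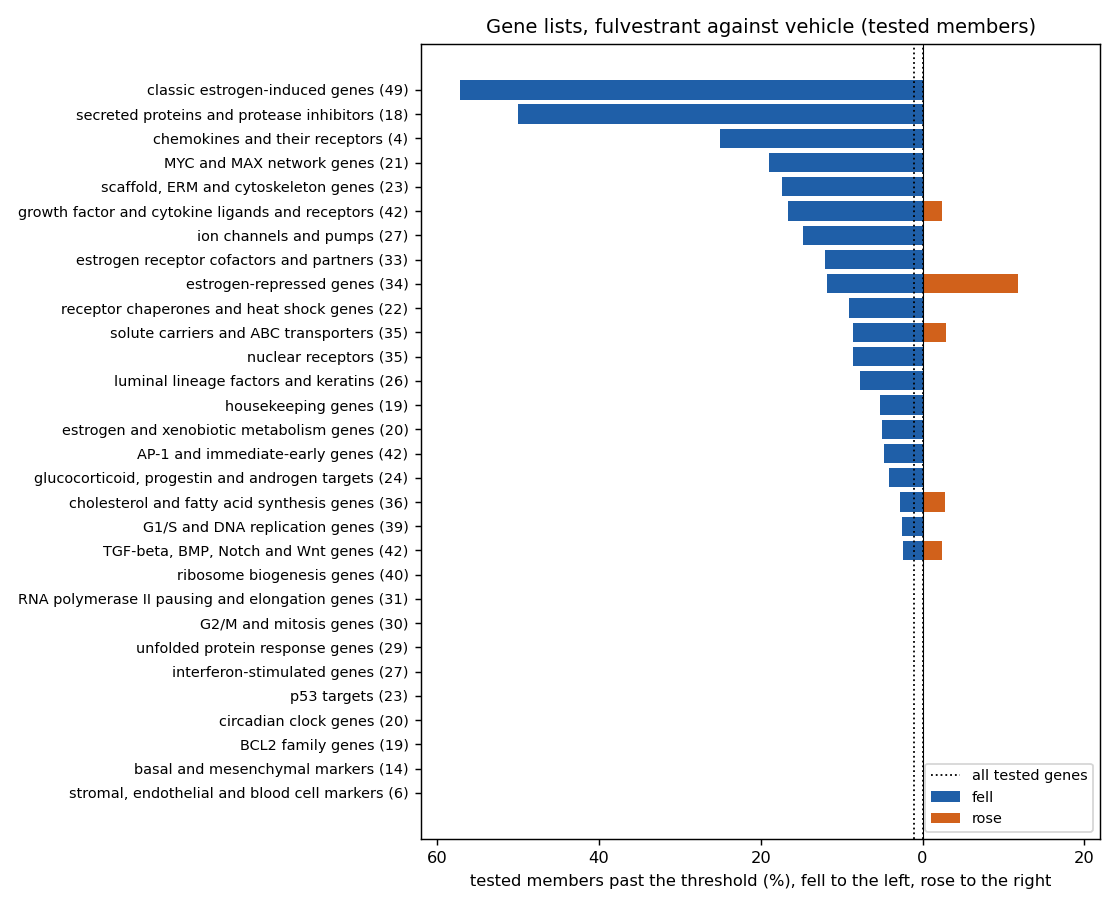
Share of the tested members of each of 30 gene lists (number tested in brackets) that fell, drawn to the left in blue, or rose, drawn to the right in orange, with fulvestrant against vehicle; dotted lines mark the shares of all tested genes, 1.05% and 0.107%. Classic estrogen-induced genes reach 57.1% and 10 lists hold no call.

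The 25 genes that rose did so by 0.20 to 0.57 on the log2 scale. ABCC5, an exporter of cyclic nucleotides and organic anions (ENSG00000114770, chromosome 3, 183919934 to 184017884), had 358 and 356 CPM with fulvestrant, against 269 and 279 CPM with vehicle. Its log2 fold change was 0.38 ± 0.051 (edgeR's quasi-likelihood test, adjusted p = 0.00013). KYNU, an enzyme of tryptophan breakdown, had 385 and 377 CPM with fulvestrant, against 310 and 306 CPM with vehicle (0.30 ± 0.049). NEDD4L, an E3 ubiquitin ligase that controls membrane transporters, had 535 and 542 CPM with fulvestrant, against 426 and 436 CPM with vehicle (0.32 ± 0.051). These 3 were the ones that kept their call whichever of the 4 libraries was left out.

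IL1R1, the interleukin-1 receptor, rose most, with 35.4 and 34.9 CPM under fulvestrant, against 23.5 and 23.8 CPM under vehicle (0.57 ± 0.11). It lost its call without fulvestrant library 3 (adjusted p = 0.075), vehicle library 3 (0.11) or vehicle library 4 (0.054) and in DESeq2 (0.07). TCF7L1, a mostly repressive transcription factor of the Wnt pathway, had 332 and 335 CPM with fulvestrant, against 256 and 250 CPM with vehicle (0.40 ± 0.069; adjusted p = 0.062 without vehicle library 4). EPHA4, an ephrin receptor, had 172 and 173 CPM with fulvestrant, against 136 and 131 CPM with vehicle (0.37 ± 0.069). Leaving out any 1 of the 4 libraries ended its call, with adjusted p = 0.074, 0.059, 0.062 and 0.14 without fulvestrant libraries 3 and 4 and vehicle libraries 3 and 4.

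The list of estrogen-repressed genes went both ways, with a median of 0.04. Of its 34 tested members, 4 rose (EPHA4, ABCC5, TCF7L1 and IL1R1), which is 11.8%, against 0.107% of all tested genes. Another 4 fell (KLF6, IGFBP5, BCL6 and KITLG), which is 11.8%, against 1.05% of all tested genes. The list was chosen with earlier results of these data known, so neither share is independent evidence. BCL6, a transcriptional repressor, had 136 and 137 CPM with fulvestrant, against 175 and 175 CPM with vehicle (-0.36 ± 0.059), and kept its call without any 1 of the 4 libraries. The other 3 that fell did not. IGFBP5 lost its call without fulvestrant library 3 (adjusted p = 0.18) or vehicle library 3 (0.15). KITLG lost it without fulvestrant library 3 (0.72), vehicle library 3 (0.39) or vehicle library 4 (0.21), and KLF6 without any 1 of the 4 (0.088 to 0.49).

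Many of the genes that fell lay beside each other. Positions were taken from RefSeq (GRCh38.p14) for 217 of the 245, and 80 of these (36.9%) lay within 100 kb of another gene that fell or overlapped one. Of all 18491 positioned tested genes, 547 (2.96%) had a gene that fell as close. Counting only neighbours separated by a gap gave 65 (30.0%) and 475 (2.57%), and some of the 65 also overlapped another gene that fell. Reads of overlapping genes cannot be assigned with certainty, because the sources used here do not state the strand setting of the counting. Chaining neighbours within 100 kb, overlapping ones included, gave 32 groups, of which 13 held at least 3 genes. The examples below were chosen after their values were seen. Their tested genes are counted among those with a RefSeq position, and the 4884 tested genes without one could not be placed.

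On chromosome 21 between 34668994 and 35049302, all 4 positioned tested genes fell, CLIC6 and RUNX1 with the non-coding RNAs LINC00160 and LINC01426 between them. LINC00160 had 5.17 and 5.21 CPM with fulvestrant, against 17.2 and 18.7 CPM with vehicle (-1.78 ± 0.20), and LINC01426 had 1.61 and 3.24 CPM with fulvestrant, against 6.84 and 7.13 CPM with vehicle (-1.54 ± 0.28; adjusted p = 0.18 without fulvestrant library 3). In the serpin cluster of chromosome 14, between 94280460 and 94390635, all 3 positioned tested genes fell. SERPINA10, an inhibitor of coagulation factors, had 17.3 and 14.9 CPM with fulvestrant, against 38.5 and 28.1 CPM with vehicle (-1.06 ± 0.17; adjusted p = 0.096 without vehicle library 3). SERPINA1, alpha-1-antitrypsin, had 16.5 and 19.1 CPM with fulvestrant, against 29.4 and 28.3 CPM with vehicle (-0.71 ± 0.13; adjusted p = 0.11 without fulvestrant library 3 and 0.075 without vehicle library 3). SERPINA6 and RUNX1, described above, are the members of these 2 stretches with the smallest adjusted p.

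On chromosome 17 between 40309180 and 40501623, RARA, IGFBP4 and TNS4 fell, 3 of the 7 positioned tested genes of the stretch. TNS4, a tensin of focal adhesions, had 52.3 and 54.1 CPM with fulvestrant, against 82.2 and 71.9 CPM with vehicle (-0.54 ± 0.087; adjusted p = 0.087 without vehicle library 3). TOP2A lies in the same stretch and did not pass, so falling genes and genes with no call were interleaved there. On chromosome 9 between 33104077 and 33264708, B4GALT1, SPINK4 and BAG1 fell, 3 of 4 positioned tested genes. On chromosome 10 between 102644479 and 102743492, all 3 positioned tested genes fell: TRIM8 (-0.71 ± 0.10), ARL3 (-0.95 ± 0.068) and SFXN2 (-1.08 ± 0.062).

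ARL3, a small GTPase of cilia, and SFXN2, a mitochondrial carrier, are divergent genes whose annotated starts lie 239 bases apart on opposite strands. SFXN2 had 172 and 173 CPM with fulvestrant, against 363 and 363 CPM with vehicle, and ARL3 had 65.4 and 68.5 CPM with fulvestrant, against 130 and 129 CPM with vehicle. Both fell to close to the same share of vehicle, 47.4% for SFXN2 and 51.7% for ARL3. The sequence between them is shown because both genes share it. It is RefSeq's 300-base promoter window of SFXN2 (GRCh38.p14, chr10:102714386-102714685, plus strand), from 250 bases before to 50 after its start, 5′ to 3′, with the 238 bases between the 2 starts in capitals. The window holds 69.7% G and C, against a median of 64.3% over the 13723 tested genes with such a window and 67.2% over the 162 genes that fell and have one.
SFXN2: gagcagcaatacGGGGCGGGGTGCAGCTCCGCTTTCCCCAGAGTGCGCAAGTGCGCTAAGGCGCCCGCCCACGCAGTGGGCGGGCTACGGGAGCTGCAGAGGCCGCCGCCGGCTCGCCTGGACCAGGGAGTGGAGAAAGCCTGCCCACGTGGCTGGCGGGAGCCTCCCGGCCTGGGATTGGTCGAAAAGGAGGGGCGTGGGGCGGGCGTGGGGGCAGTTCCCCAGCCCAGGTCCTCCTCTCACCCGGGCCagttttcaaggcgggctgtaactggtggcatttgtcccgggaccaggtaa

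The windows were searched for the estrogen response element GGTCANNNTGACC, which reads the same on both strands, with at most 1 of its 10 fixed letters changed. RefSeq gives several windows, for alternative starts, to 3723 of the 13723 tested genes that have one, and the first listed was used. Of the 162 genes that fell and have a window, 3 held it (1.85%), against 76 of 13723 tested genes (0.554%), and 1 of the 162 held it without a mismatch (0.617%), against 8 of 13723 (0.0583%). The SFXN2 window differs from it in at least 3 letters. A match describes these letters and is not a bound site, and windows of this length leave out enhancers. The 3 windows are shown, with the letters at the 10 fixed positions in capitals (a changed letter included), because they are the ones among genes that fell in which the element was found.
LINC02130: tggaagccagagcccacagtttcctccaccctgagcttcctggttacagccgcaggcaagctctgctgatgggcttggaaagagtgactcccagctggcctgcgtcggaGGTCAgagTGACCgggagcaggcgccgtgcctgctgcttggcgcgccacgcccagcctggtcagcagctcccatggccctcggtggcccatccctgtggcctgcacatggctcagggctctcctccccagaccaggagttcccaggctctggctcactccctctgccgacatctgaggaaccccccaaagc
RMST: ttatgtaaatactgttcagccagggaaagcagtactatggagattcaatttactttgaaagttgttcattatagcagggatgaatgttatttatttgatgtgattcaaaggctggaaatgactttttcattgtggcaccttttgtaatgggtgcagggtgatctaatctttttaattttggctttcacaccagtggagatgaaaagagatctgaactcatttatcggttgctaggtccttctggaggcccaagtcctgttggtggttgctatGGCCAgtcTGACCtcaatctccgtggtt
MICOS10-NBL1: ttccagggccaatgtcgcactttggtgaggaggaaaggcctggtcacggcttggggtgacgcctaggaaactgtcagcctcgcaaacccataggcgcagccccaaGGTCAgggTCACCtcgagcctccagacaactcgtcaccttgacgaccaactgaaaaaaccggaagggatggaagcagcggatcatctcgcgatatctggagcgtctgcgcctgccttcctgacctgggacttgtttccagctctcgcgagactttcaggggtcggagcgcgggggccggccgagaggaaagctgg

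LINC02130 (chr16:14370217-14370516) holds the exact element, centred 135 bases before the start. This non-coding RNA had 2.26 and 1.98 CPM with fulvestrant, against 6.04 and 7.54 CPM with vehicle (-1.65 ± 0.32), and lost its call without fulvestrant library 3 (adjusted p = 0.072), fulvestrant library 4 (0.088) or vehicle library 4 (0.11). RMST (chr12:97464441-97464740) carries the change T3C, counted from the first letter of the element, centred 28 bases after the start of its window's transcript, which lies inside the gene and not at the gene's own start (97462804). It is a long non-coding RNA known from neural differentiation and had 18.1 and 23.7 CPM with fulvestrant, against 37.5 and 38.1 CPM with vehicle (-0.86 ± 0.14; adjusted p = 0.065 without fulvestrant library 3). MICOS10-NBL1 (chr1:19596729-19597028) carries G10C, centred 139 bases before the start. It is a read-through gene overlapping NBL1 and MICOS10, so its counts, 84.6 and 85.9 CPM with fulvestrant and 104 and 105 CPM with vehicle (-0.29 ± 0.065), cannot be told from theirs, and it lost its call without any 1 of the 4 libraries (adjusted p from 0.13 to 0.26).

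Estradiol given to starved cells offers a comparison that shares no library with fulvestrant against vehicle. There, 1177 genes rose (5.04% of those tested) and 874 fell (3.74%) by edgeR's quasi-likelihood test. Of the 245 genes that fell with fulvestrant, 235 (95.9%) rose with estradiol and 0 fell. These 235 are 19.97% of the genes that rose with estradiol. All 245 had a positive log2 fold change with estradiol, against 47.6% of all tested genes. Of the 25 genes that rose with fulvestrant, 24 (96%) fell with estradiol, which is 2.75% of the genes that did. Without fulvestrant library 3 or vehicle library 3, fewer genes were called lower with fulvestrant. The number of those that rose with estradiol shrank along with them, so its drop alone does not show less overlap. These fits leave the group concerned without a replicate.

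The genes with the deepest falls illustrate the opposite movement. IGFBP4 had 227 and 210 CPM with estradiol, against 26 and 21.2 CPM with starved vehicle, and SPINK4 had 69.4 and 76.5 CPM with estradiol, against 10.7 and 9.5 CPM with starved vehicle. RUNX1 had 1150 and 1099 CPM with estradiol, against 354 and 349 CPM with starved vehicle. All 3 thus rose in every estradiol library and were low in every fulvestrant library relative to its own vehicle. ESR1, lower with fulvestrant, was higher with estradiol, at 1357 and 1424 CPM, against 1036 and 1020 CPM with starved vehicle. EPHA4, higher with fulvestrant, changed by -1.07 with estradiol. Across the 14629 genes with a mean of at least 50 counts, the 2 fold changes had a Pearson r of -0.472, given as a description, since genes are not independent and both values grow less precise at low counts.

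The 10 genes that fell with fulvestrant and were not called with estradiol had log2 fold changes of 0.01 to 0.86 there. None of the 10 was among the 101 that kept their call whichever library was left out. They included the stem cell factor gene KITLG (0.01 with estradiol), the immediate-early factor gene KLF6 (0.22) and RAD17P1, a pseudogene that lies wholly inside AGR3, so its reads cannot be told from those of AGR3, which fell by 0.98 on the log2 scale. RAD17P1 had 4.04 and 6.29 CPM with fulvestrant, against 14 and 14.9 CPM with vehicle (-1.49 ± 0.27), and lost its call without fulvestrant library 3 (adjusted p = 0.16) or vehicle library 4 (0.051).

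In the other direction, 289 genes rose at least 2-fold with estradiol. Of these, 131 (45.3%) fell with fulvestrant, against 1.05% of all tested genes. The remaining 158 were not called, and 131 of those had a negative fold change, against 48.5% of all tested genes. The median of the 158 was -0.35, against 0.006 over all tested genes. These 158 were counted less deeply, with a median of 6.09 CPM in vehicle, against 69.8 CPM for the 131 that fell (CPM are not per gene length). RET, a receptor tyrosine kinase, had 14.7 and 15.6 CPM with fulvestrant, against 20.8 and 18.5 CPM with vehicle (-0.38 ± 0.16; edgeR's quasi-likelihood test, adjusted p = 0.55), while its log2 fold change with estradiol was 2.74. HSPB8, a small heat shock protein, had 27.5 and 31.3 CPM with fulvestrant, against 35 and 31.4 CPM with vehicle (-0.19 ± 0.11), and 1.93 with estradiol. Both fulvestrant changes missed the adjusted threshold, with 95% intervals before adjustment over genes of -0.72 to -0.05 for RET and -0.41 to 0.04 for HSPB8.

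**Figure D4:**
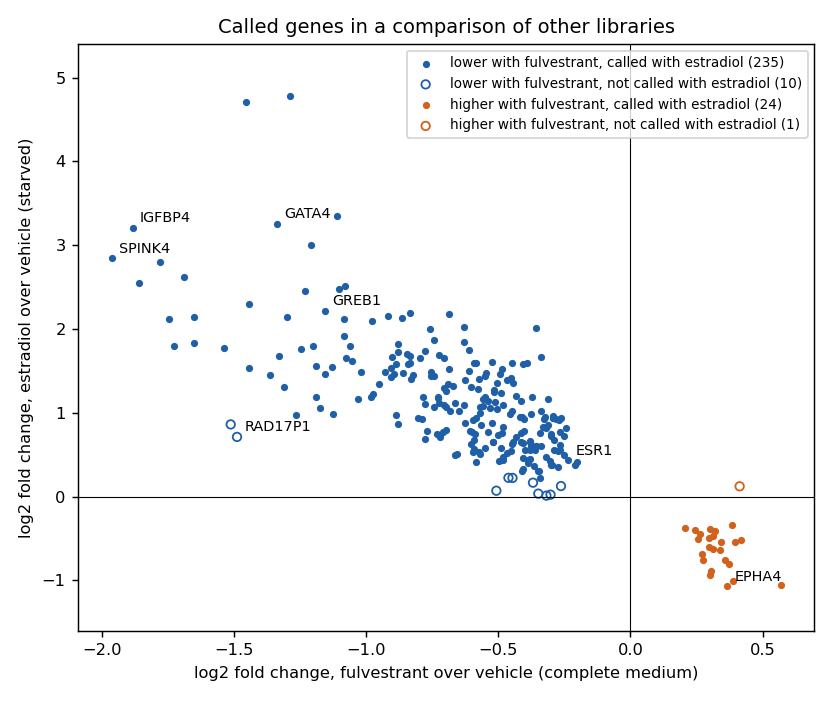
Log2 fold change of estradiol over starved vehicle (vertical) against that of fulvestrant over vehicle in complete medium (horizontal) for the 270 genes called with fulvestrant, which share no library; filled points are also called with estradiol. The 245 blue genes, lower with fulvestrant, all lie above 0 on the vertical axis, and 24 of the 25 orange ones are called below it.

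Fulvestrant was also set against raloxifene, a benzothiophene, and tamoxifen, a triphenylethylene, at the same dose and time. Both are selective estrogen receptor modulators that compete for the same pocket and do not share the steroid frame of fulvestrant. These 2 pairs share the fulvestrant libraries. With edgeR's quasi-likelihood test, adjusted over genes within each pair, 24 genes were lower with fulvestrant than with raloxifene (0.103% of those tested) and 0 were higher (0%; 402 at an unadjusted p under 0.05, 0 in DESeq2). Against tamoxifen 106 were lower (0.453%) and 2 higher (0.00856%), IFNGR1 and TM4SF18-AS1. Of the 106, 102 were among the 245 genes that fell with fulvestrant against vehicle. Set against the same vehicle, raloxifene had 112 genes called lower and 21 higher, and tamoxifen 11 lower and 1 higher. The 106 are thus a contrast with a drug that had few calls of its own. Adjusting over both drug pairs together gave 31 and 97 lower genes against raloxifene and tamoxifen.

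These counts depended on single libraries. Against raloxifene the lower count was 168 without raloxifene library 3 and 14 without either fulvestrant library. Against tamoxifen it was 47 without fulvestrant library 3 and 67 without tamoxifen library 4, and it was 65 when only the libraries of the 2 drugs were fitted. The raloxifene libraries also differed most in depth, with 7856803 and 3682311 counts.

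SPINK4 had the largest called difference from raloxifene, with 13.9 and 13.3 CPM under fulvestrant, 34.3 and 44 under raloxifene, 39 and 39.3 under tamoxifen, and 50.3 and 56.4 under vehicle. It was lower with fulvestrant by -1.48 ± 0.14 than with raloxifene (edgeR's quasi-likelihood test, adjusted p = 1.3e-05) and by -1.52 ± 0.14 than with tamoxifen (adjusted p = 1.5e-06), on the log2 scale. GREB1 had 586 and 591 CPM with fulvestrant, 924 and 965 with raloxifene, 1110 and 1088 with tamoxifen, and 1354 and 1266 with vehicle. The differences were -0.68 ± 0.053 against raloxifene and -0.90 ± 0.053 against tamoxifen. IGFBP4 had 37.8 and 35.8 CPM with fulvestrant, 72.7 and 82.8 with raloxifene, 98.9 and 100 with tamoxifen, and 146 and 124 with vehicle. For these 3 genes the fulvestrant libraries lay below every raloxifene and tamoxifen library, and both differences held whichever library of the pair was left out.

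Of the 24 genes lower than with raloxifene, 11 kept their call whichever of the 4 libraries of the pair was left out, and of the 106 lower than with tamoxifen, 37 did. PDZK1, RUNX1, B4GALT1, CXCL12 and SFXN2 were among those 11. PDZK1 differed by -1.11 ± 0.13 from raloxifene and by -1.41 ± 0.12 from tamoxifen. PGR differed by -0.33 ± 0.058 from raloxifene and by -0.42 ± 0.058 from tamoxifen. Its call against tamoxifen held whichever library was left out, and that against raloxifene was lost without fulvestrant library 3 (adjusted p = 0.70) or raloxifene library 4 (0.29). NRIP1, at -0.34 against raloxifene, lost its call there without any 1 of the 4 libraries (0.068 to 0.71) and kept it against tamoxifen (-0.46) in each case. MYC was lower than with tamoxifen (-0.83 ± 0.099) and did not pass against raloxifene (-0.45 ± 0.10; adjusted p = 0.21, 95% interval -0.67 to -0.23 before adjustment over genes). Of the 49 classic estrogen-induced genes, 11 were lower with fulvestrant than with raloxifene, against 0.103% of all tested genes. Lower than with tamoxifen were 22, against 0.453% of all tested genes. Their medians were -0.27 and -0.44, against -0.002 and 0.001 over all tested genes. This list was put together with earlier results of these data known.

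For most of the 245 genes lowered by fulvestrant no difference from raloxifene was called. Of the 245, 24 were called lower than with raloxifene and 102 lower than with tamoxifen. Against vehicle, 244 of the 245 had a negative log2 fold change with raloxifene and 234 with tamoxifen. Their medians were -0.35 with raloxifene and -0.19 with tamoxifen, against -0.58 with fulvestrant. These comparisons share the vehicle libraries by which the 245 were chosen. HEY2, a Notch-pathway repressor that fell by 1.19 on the log2 scale with fulvestrant, had 8.08 and 7.37 CPM with fulvestrant, 6.71 and 9.08 with raloxifene, 10.3 and 12.8 with tamoxifen, and 17.5 and 17.9 with vehicle. Its difference from raloxifene was 0.04, with a 95% interval of -0.42 to 0.50, and from tamoxifen -0.56 (-0.98 to -0.15 before adjustment over genes, adjusted p = 0.62). MYBL1 had 77.4 and 91.9 CPM with fulvestrant, 87.2 and 92.7 with raloxifene, 90.8 and 120 with tamoxifen, and 171 and 162 with vehicle, and differed from raloxifene by -0.08 (interval -0.31 to 0.14) and from tamoxifen by -0.31 (-0.52 to -0.09, adjusted p = 0.51). TIPARP, an ADP-ribosyltransferase that restrains the aryl hydrocarbon receptor, had 53.6 and 63.5 CPM with fulvestrant, 55.3 and 65.2 with raloxifene, 57.2 and 66.6 with tamoxifen, and 87.6 and 93.7 with vehicle. Its intervals were -0.28 to 0.25 against raloxifene and -0.33 to 0.18 against tamoxifen. TIPARP's own fall with fulvestrant, -0.63 ± 0.12, lost its call without fulvestrant library 3 (adjusted p = 0.17) or vehicle library 4 (0.092). A difference that misses the threshold does not show that the drugs act alike on these genes.

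Higher with fulvestrant than with tamoxifen were IFNGR1, the ligand-binding chain of the interferon gamma receptor, and the antisense RNA TM4SF18-AS1. IFNGR1 had 14.7 and 16.4 CPM with fulvestrant, 8.95 and 10.1 with tamoxifen, and 13.2 and 13.6 with vehicle, and differed from tamoxifen by 0.71 ± 0.16 (edgeR's quasi-likelihood test, adjusted p = 0.047). Leaving out any 1 of the 4 libraries ended that call (0.12 to 0.52). TM4SF18-AS1 had 160 and 151 CPM with fulvestrant, 116 and 120 with tamoxifen, and 130 and 123 with vehicle, and differed from tamoxifen by 0.40 ± 0.061 (adjusted p = 0.072 without fulvestrant library 3).

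**Figure D5:**
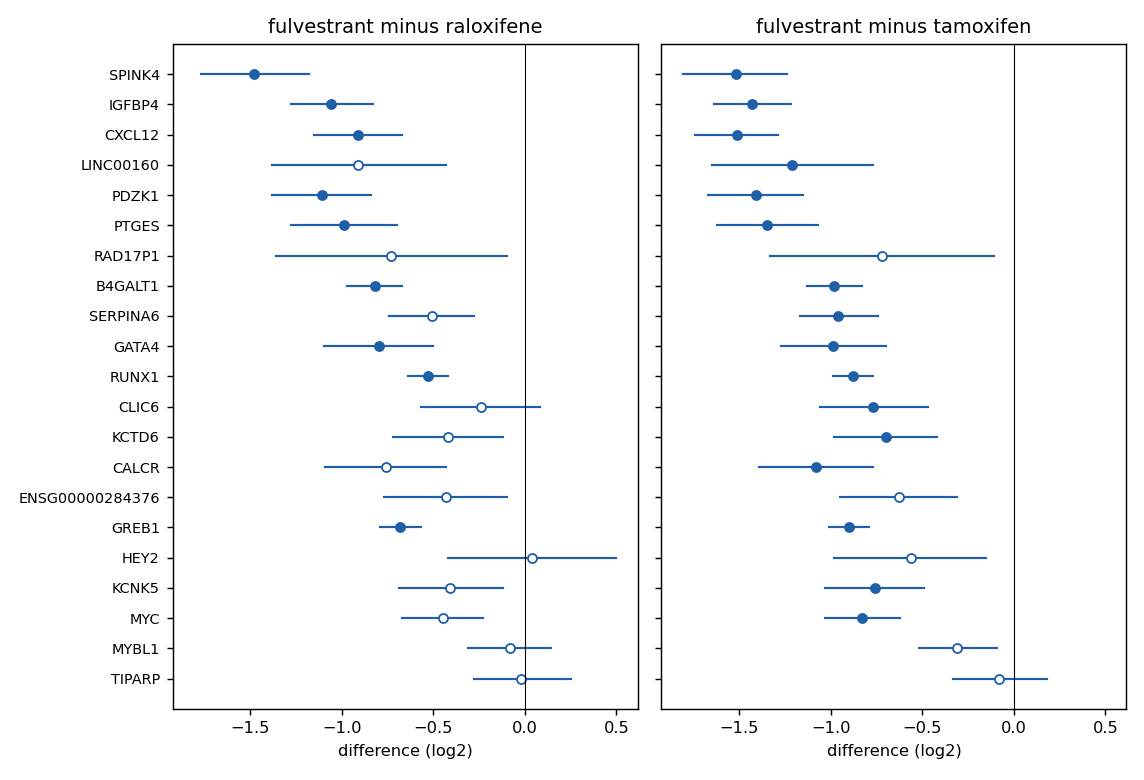
Difference in log2 level between fulvestrant and raloxifene (left) and between fulvestrant and tamoxifen (right) for the 15 genes that fell most against vehicle and 6 further genes of the text; bars are 95% intervals of the fit before adjustment over genes, and filled points pass the adjusted threshold. SPINK4 lies at -1.48 and -1.52, while HEY2 lies at 0.04 against raloxifene.

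By gene class, RefSeq gave 191 of the 217 positioned genes that fell as protein-coding (88%) and 21 as long non-coding (9.68%), against 78.7% and 13.7% of the positioned tested genes. Of genes over 100 kb long 1.97% fell, of those between 10 and 100 kb 1.12%, and of those under 10 kb 0.669%. Counting depth moved with length in the same order, with median vehicle levels of 43.2, 30.3 and 8.29 CPM over the tested genes of the 3 classes, and its part in these shares was not tested. The median log2 fold change of the genes that fell was -0.40 over 100 kb, -0.58 between 10 and 100 kb and -0.71 under 10 kb. Of the 37 falls of at least 2-fold in genes with a RefSeq length, 3 were in genes over 100 kb, those of RUNX1, GREB1 and CALCR.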

How the data were processed

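The series holds 12 PRO-seq libraries of T47D cells in 6 groups of 2. The authors deposited whole-number read counts per gene. The tools named in the submitters' processing notes are Bowtie2 2.4.4, SAMtools 1.9 and cutadapt 1.8.1, and the build is hg38. The counting tool, annotation, strand setting and the part of each gene counted are not stated in the sources used here, so overlapping and antisense genes are uncertain. From these counts, edgeR 4.0.16 (R 4.3.3, limma 3.58.1) was run with its expression filter, TMM scaling and quasi-likelihood test. All 12 libraries entered a 6-group model, adjusted by Benjamini-Hochberg over 23375 genes with a threshold of 0.05. Every adjusted p is from this test unless DESeq2 (1.42.0) is named. Groups and numbers 3 and 4 come from the descriptions; the titles number the same libraries 1 and 2.

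Named genes were those that moved most, with at least 50 mean counts and no overlap between groups, the top members of each gene list, those with the smallest adjusted p, a few well-known targets and those differing most between drugs. Others were chosen after their values were seen. The comparison and the gene lists were chosen with earlier results of these data known. Positions and promoter windows are RefSeq's for GRCh38.p14, the same build as hg38. Alternatives were scaling, DESeq2, the filter, the libraries fitted, a replicate block and leaving out each library.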

Additional observations from a re-analysis of the deposited data

How the results depend on the processing

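Of 66 called genes named and followed through the alternatives, 42 kept their call in every one, 24 lost it in at least 1, and 0 changed direction. Left unscaled, 42 genes rose with fulvestrant and 6 were higher than with tamoxifen. DESeq2 gave 15 and 1, and the stricter filter gave 5 higher than with tamoxifen. With no low-count filter 59 rose, 89 were lower and 1 higher than with raloxifene, and 162 lower and 8 higher than with tamoxifen. Fitting only the compared groups, 39 rose, and 65 were lower and 1 higher than with tamoxifen. Leaving out 1 library gave 127 to 182 genes that fell and 7 to 16 that rose. It gave 14 to 168 lower than with raloxifene, 47 to 85 lower and 1 to 2 higher than with tamoxifen, and 127 to 229 that fell and rose with estradiol. The cause was not tested, though fewer libraries leave less information on the spread. The median of all genes moved to 0.027 unscaled and 0.002 with RLE factors. With the library number as a replicate block, 371 genes fell, including all 245, and 127 rose; 75 were lower and 2 higher than with raloxifene, and 219 lower and 23 higher than with tamoxifen. Same-numbered libraries deviated together with correlations of 0.099 to 0.423, but no label says that the numbers pair samples, so the block stays an alternative. With 2 libraries a group, small changes of low genes could not be detected.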
